A study of Drosophila melanogaster with 2 samples.

Results

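The regions described here were 845 intronic binding peaks of the CG10366 protein on the autosomes of Drosophila melanogaster, each more than 2000 bp from any annotated transcript start. They were taken from the series-wide list of 5153 peaks that passed a reproducibility threshold, of which they made up 16.4% (95% Wilson interval 15.4 to 17.4%, counting error only). A peak was a member when its summit lay on chromosome 2, 3 or 4, inside an annotated gene, in no exon of any gene, and over 2000 bp from the nearest start of any transcript. Within that list the choice used position alone. The threshold had already selected on reproducibility, and with it on signal. Members had a median signal of 127, against 37.8 at ranked candidates of the same positions that failed it. Signal, sequence and overlap with each library's own list were free to vary only among peaks that passed.

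The study measured where a tagged version of CG10366 sits on DNA, by chromatin immunoprecipitation followed by sequencing (ChIP-seq), in which protein-bound fragments are pulled down and read. All samples came from 1 group, whole embryos collected 0 to 24 hours after laying from a transgenic strain carrying a CG10366-eGFP fusion, with the fusion pulled down by an antibody to GFP. There were 2 biological replicate libraries, made from chromatin sonicated to 200 to 800 bp, and no second genotype, stage or treatment. Results are therefore descriptions, and the 2 libraries' own peak lists serve as the check on each of them. Because whole embryos of all embryonic stages were mixed, a peak present in few cells and a weak peak present in many could not be told apart, and no embryo tissue could be checked by markers. The number of reads behind each library is not known from the lists.

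Introns of developmental genes in the fly often hold enhancers, stretches of DNA where transcription factors bind and act on a start site that can lie far away. Promoters, by contrast, hold factors and the transcription machinery at the start site itself. Long introns are typical of genes for transcription factors, signalling proteins and nerve-cell surface proteins, while housekeeping genes are mostly compact.

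Member summits were lower in GC content than the DNA around them, so sequences under 5 of the 10 strongest members are shown first. Each line gives 101 bases of the plus strand centred on the summit, from the RefSeq sequence of the Release 6 genome (dm6), with capitals marking, on either strand, 3 hexamers of A and T alone: TTTAAA, which is its own reverse complement, the hexamer ATATTA and the hexamer TATTAA. The intervals are chr3L:3060754-3060854 in CG32486, chr3L:8458272-8458372 in Gug, chr3L:14005026-14005126 in upSET, chr3L:10682929-10683029 in simj and chr3L:3785175-3785275 in CG32264.
CG32486: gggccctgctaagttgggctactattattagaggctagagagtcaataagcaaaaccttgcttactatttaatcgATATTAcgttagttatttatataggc
Gug: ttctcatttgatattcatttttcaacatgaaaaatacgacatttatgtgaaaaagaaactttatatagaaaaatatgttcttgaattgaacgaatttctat
upSET: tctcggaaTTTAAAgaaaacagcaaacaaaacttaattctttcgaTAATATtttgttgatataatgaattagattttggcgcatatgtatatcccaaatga
simj: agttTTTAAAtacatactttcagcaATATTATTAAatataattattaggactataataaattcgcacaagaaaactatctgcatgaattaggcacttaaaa
CG32264: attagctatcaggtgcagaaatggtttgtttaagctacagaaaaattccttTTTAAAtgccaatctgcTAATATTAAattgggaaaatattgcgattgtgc
In these 101 bases GC content was 36.6% in CG32486, 21.8% in Gug, 26.7% in upSET, 22.8% in simj and 31.7% in CG32264. The windows 400 bp to either side averaged 44.6%, 55.4%, 38.1%, 43.6% and 43.1% GC in the same order. The others of the 10 strongest, in CG12769, Hr3, CG33158, Eip63E and Dys, are not shown. Of these CG33158, Eip63E and Dys held none of the hexamers, like Gug. Their summits had 28.7%, 45.5% and 28.7% GC, between flanks of 44.6%, 36.6% and 54.0%, so Eip63E was higher in GC at its summit than around it.

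A smaller set of members carried the letters ACAGGGT, and another the core of the site bound by the insulator protein CTCF. The 3 ACAGGGT members shown lie in Synd (chr3R:20837484-20837584), CG34355 (chr3R:23846195-23846295) and lilli (chr2L:2905227-2905327). Capitals mark ACAGGGT or its reverse complement ACCCTGT.
Synd: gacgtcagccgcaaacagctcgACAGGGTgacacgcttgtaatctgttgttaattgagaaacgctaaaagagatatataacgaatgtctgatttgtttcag
CG34355: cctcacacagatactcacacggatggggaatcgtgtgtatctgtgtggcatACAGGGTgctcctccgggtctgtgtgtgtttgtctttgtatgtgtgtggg
lilli: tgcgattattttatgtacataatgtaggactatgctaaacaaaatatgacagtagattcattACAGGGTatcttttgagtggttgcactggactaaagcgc
The 2 members shown for the CTCF core lie in RapGAP1 (chr2L:7535063-7535163) and, apart from the peak shown above, in CG32264 (chr3L:3767966-3768066), with the core in capitals.
RapGAP1: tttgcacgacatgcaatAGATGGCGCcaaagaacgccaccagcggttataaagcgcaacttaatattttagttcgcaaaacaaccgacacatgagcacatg
CG32264, CTCF core: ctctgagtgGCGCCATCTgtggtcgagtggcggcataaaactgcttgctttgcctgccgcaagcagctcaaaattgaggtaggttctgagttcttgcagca
The member with the highest GC among the 25 strongest, in CG8745 (chr3L:13862541-13862641), is given as an exception to the AT-rich pattern and held none of the letters above.
CG8745: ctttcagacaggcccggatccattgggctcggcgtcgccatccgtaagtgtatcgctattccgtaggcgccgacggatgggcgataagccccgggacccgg

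The rule's edges fell among ordinary peaks. The members nearest to a start site were in pnt at 2009 bp, with a signal of 122, in the non-coding gene lncRNA:CR44320 at 2011 bp, with a signal of 237, and in CadN at 2020 bp, with a signal of 92.2. Just outside the rule were intronic peaks of tna at 1999 bp (signal 268), Ptp61F at 1992 bp (signal 137) and Dys at 1992 bp (signal 106). The list was cut on the irreproducible discovery rate (IDR), a measure of agreement between ranked peak lists. Whether it compared the 2 libraries themselves is not known from the lists. Of the class's ranked candidates, the lowest passing −log10 value of the IDR was 2.00097 in Prosap, and the highest failing value was 1.99916 in T48.

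Signal, the authors' own value per peak in the deposited lists, whose exact measure is not given in the sources used here, ran from 2.07 to 1418 among the 845 members, with a median of 127 and quartiles of 96.5 and 193. The median was 151 at the 1034 autosomal intronic peaks within 2000 bp of a start site, 120 at the 406 autosomal intergenic peaks over 2000 bp from one, and 127 at the 327 intronic peaks of the same distance on the X. Members were thus weaker than intronic peaks near start sites and close to other distal peaks. In each library's own list the members' median signal was 0.878 times that of all other peaks in replicate 1 and 0.867 times in replicate 2. Of the series' 500 strongest peaks 34 were members, or 4.02% of the members, against 137 of the intronic peaks near start sites, or 13.2% of these.

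The strongest member lay in the first intron of CG32486, with a series-wide signal of 1418, 813 in replicate 1 and 607 in replicate 2. CG12769 followed with 1296 (765 in replicate 1 and 532 in replicate 2). Hr3, a nuclear receptor of the ecdysone cascade that times moulting and metamorphosis, had a member of 1279 in its first intron, with 806 in replicate 1 and 477 in replicate 2. Both libraries thus placed the same 3 regions far above the members' median, and the series-wide value was close to the sum of the library values: over 751 members ranked in both libraries and not beside a stronger summit, the ratio of the series-wide signal to that sum had a median of 0.999.

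Several of the other strong members lay in genes for chromatin proteins. The member in Gug, which encodes the corepressor Atrophin, had a signal of 922 (544 in replicate 1 and 376 in replicate 2), and the one in upSET, a SET-domain chromatin protein, had 785 (459 and 324 in the same order). The member in simj, the p66 subunit of the NuRD chromatin remodelling complex, reached 729, with 480 in replicate 1 and 240 in replicate 2. A member of 531 lay in the first intron of Mi-2, the ATPase of the same complex, where Su(Tpl), a transcription elongation factor gene, overlaps it. JIL-1, a kinase of histone H3, held one of 646 in its intron 4. These host genes were named because their members were among the 25 strongest; no count of chromatin genes was tested.

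Signalling genes made up another part of the strongest members. A peak of 704 lay inside both aos, which encodes a secreted inhibitor of the EGF receptor, and the overlapping CG33158. The corepressor gene sbb, known from the Dpp pathway, held members of 642 and 637 in its first intron. The member in fz, a Wnt and planar polarity receptor, had 522, that in mam, the Notch co-activator, 509, that in Pli, a Pellino ubiquitin ligase of Toll signalling, 505, and that in msn, a Ste20-family kinase, 504. Pak3, a p21-activated kinase, had one of 467 and drongo one of 462. The remaining hosts among the 25 strongest members were CG32264 (670), Eip63E, a cyclin-dependent kinase (669), Dys, the fly dystrophin, in its intron 16 (667), eff, a ubiquitin-conjugating enzyme (620), CG9328 (576), CG8745 (553), CG6966 (552) and CG13894 (512). All 25 were called in the list of each library.

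Overlap with the libraries' own lists was more frequent at stronger members. Of the 845 members 424, or 50.2% (46.8 to 53.5%), overlapped a peak of both libraries' own thresholded lists, against 57.9% of all series-wide peaks and 62.7% of intronic peaks near start sites. Replicate 1 alone held 260 members (30.8%), replicate 2 alone 78 (9.23%), and 83 (9.82%) lay in neither library's list. Among the 100 strongest members 98.0% were in both lists, against 94.0% of ranks 101 to 300, 38.0% of ranks 301 to 600 and 9.80% of ranks 601 to 845. The series-wide signal was close to the sum of the library signals, and each library's list was itself thresholded. Overlap with these lists was therefore not independent of signal, and its rise with rank is no separate measure of reproducibility. The more conservative series-wide list held 740 members. A failure to reach a library's own list was not absence from it, since 825 members overlapped a ranked candidate of replicate 1, 829 one of replicate 2, and 812 one of both. Over these 812 the 2 libraries' signals had a Spearman rho of 0.642, a description over regions that share libraries. A member's library signal was that of the strongest candidate it overlapped. A weak summit beside a stronger one could thus take its neighbour's signal and overlap.

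**Figure D1:**
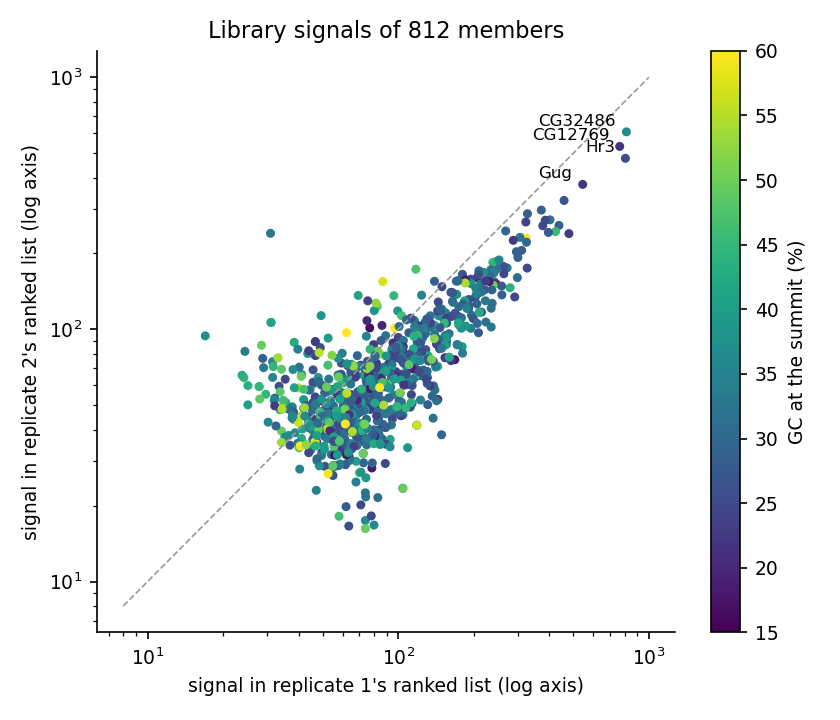
Signal of the 812 members that overlapped a ranked candidate in both libraries, replicate 1 on the horizontal and replicate 2 on the vertical axis, both logarithmic, coloured by GC content at the summit, with the dashed line marking equal values. The strongest members (CG32486, CG12769, Hr3 and Gug) stand at the upper right, most points lie below the line, and 155 of the 812 lie above it. Each value is that of the strongest overlapping candidate.

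The share of candidates that passed was lower in the class than over all candidates. Its 845 members came from 7845 ranked candidates, of which 10.8% (10.1 to 11.5%) passed, against 15.1% of all 34018 ranked candidates, 23.3% of those in introns near start sites, 8.22% of the distal autosomal intergenic ones and 21.6% of those in distal introns of the X. In each library's own lists the share was lower, at 4.76% of the class in replicate 1, against 7.77% of all its candidates, 15.03% in introns near start sites, 3.67% of distal autosomal intergenic ones and 9.61% in distal introns of the X. In replicate 2 the share was 6.38%, against 8.91%, 14.4%, 4.71% and 10.2% in the same order. The order of the classes was thus the same in all 3 lists, and the level of the share was not. Another 23 candidates of the class met the IDR value but were not in the deposited list, and 6977 failed. Failing candidates had a median signal of 37.8.

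Members were spread over 33.4 Mb of eligible sequence, that is, intronic sequence of the autosomes free of exons and over 2000 bp from a start, at 25.3 per Mb. The corresponding densities were 81.4 per Mb in autosomal introns near start sites, 16.3 per Mb in distal autosomal intergenic sequence and 40.9 per Mb in distal introns of the X. Members were therefore 0.619 times as dense as peaks of the same kind on the X, and the ratio was 0.569 in the list of replicate 1 and 0.686 in that of replicate 2. Candidates stood in the other order, with 235 per Mb on the autosomes and 189 per Mb on the X. Among the arms, 2L had 181 members (27.8 per Mb), 2R 175 (24.5 per Mb), 3L 243 (30.1 per Mb) and 3R 246 (21.9 per Mb). Chromosome 4 had 0 members and 5 candidates in 0.445 Mb.

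**Figure D2:**
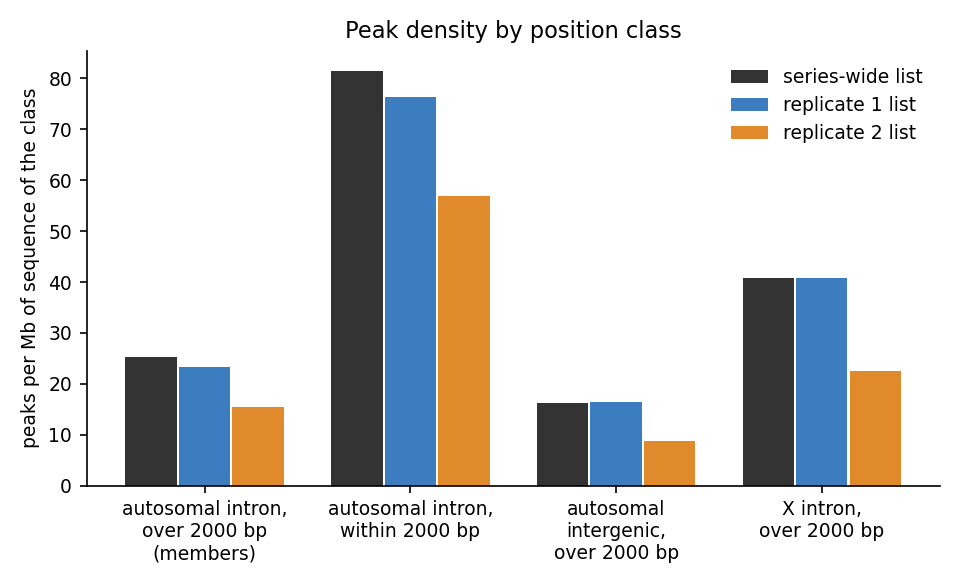
Peaks per Mb of sequence of each position class in the series-wide list and in the lists of replicate 1 and replicate 2, for the members (left), autosomal intronic peaks near start sites, distal autosomal intergenic peaks and distal intronic peaks of the X. In the series-wide list members stood at 25.3 per Mb, against 81.4, 16.3 and 40.9 per Mb in the other classes, and the order of the 4 classes was the same in both libraries.

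A few very large genes held much of the sequence and no member. The 8 autosomal genes with over 200 kb of eligible sequence each, Myo81F, Pzl, lovit, CG17684, DIP-lambda, bru3, Snap25 and l(3)80Fg, held 4.49 Mb of it, 215 candidates and 0 members. Over the whole class 10.8% of candidates passed, and candidates stood at 235 per Mb. The 8 genes were unlike in this, with 74 candidates in 1938 kb of Myo81F and 41 in 244 kb of bru3. The limit was chosen after these values were seen. Without genes of that size on either side, the density was 29.2 per Mb on the autosomes against 40.5 per Mb on the X, a ratio of 0.722, with 0.658 in the list of replicate 1 and 0.791 in that of replicate 2. Some genes under the limit, which stayed in, also held few candidates and 0 members. Among them were Gprk1 (4 candidates in 145 kb), Dbp80 (3 in 135 kb) and Parp1 (2 in 121 kb). Others of like length did not, such as pum, with 47 candidates and 5 members in 145 kb.

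Beyond 2000 bp, members still lay closer to start sites than the sequence open to them. Their median distance to the nearest start was 5501 bp (quartiles 3530 and 9754 bp), against 6871 bp for failing candidates of the class and 8124 bp for all eligible positions. Density was 34.5 per Mb at 2000 to 3000 bp, 37.2 per Mb at 4000 to 6000 bp, 22.1 per Mb at 12000 to 20000 bp and 6.17 per Mb beyond 20000 bp, where 45 members lay. In the last of these intervals it was 6.03 per Mb in the list of replicate 1 and 3.84 per Mb in that of replicate 2. Without the genes over 200 kb it was 13.2 per Mb, and still the lowest of the 7 intervals, but smaller genes with few candidates remained in that value. Of the candidates beyond 20000 bp 5.43% passed, against 9.04% at 12000 to 20000 bp.

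**Figure D3:**
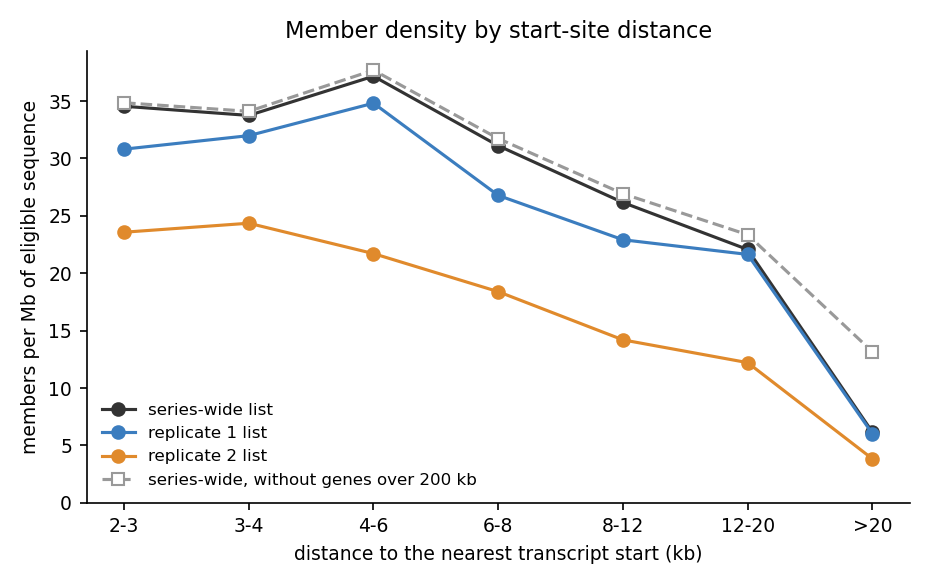
Members per Mb of eligible sequence (vertical axis) by distance to the nearest transcript start in kb (horizontal axis), in the series-wide list, in each library's list and in the series-wide list without genes over 200 kb of eligible sequence. The series-wide line stands at 37.2 per Mb at 4 to 6 kb and 6.17 per Mb beyond 20 kb, where the line without the large genes stands at 13.2 per Mb.

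Position within the gene differed from that of failing candidates. Numbered along the host's canonical transcript, or its longest one where the canonical had no intron there, the first intron held 385 members (45.6%, against 34.3% of failing candidates), the second 263 (31.1% against 28.6%) and later ones 197 (23.3% against 37.0%). The nearest start belonged to the host gene itself for 549 members, or 65.0%, against 53.2% of failing candidates. The median distance to the edge of the exon-free stretch was 2809 bp for members and 2647 bp for failing candidates. Protein-coding genes hosted 830 members, non-coding genes alone hosted 15, and 35 summits lay inside more than 1 gene. A single member lay in an annotated transposable element.

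Members were spread over 450 host genes, 12.7% of the 3553 genes with any eligible sequence. The share rose with the length on offer. Among genes with under 1 kb of eligible sequence 0.322% hosted a member, against 19.7% of those with 5 to 10 kb, 42.0% with 20 to 50 kb and 51.7% with more. Coding hosts had a median of 19.0 kb and the other coding genes 0.978 kb. Per Mb, density did not rise with length throughout. It was 13.7 in genes with under 1 kb, which held 6 members, 23.3 with 1 to 2 kb, 40.2 with 2 to 5 kb, 30.3 with 20 to 50 kb and 14.4 above 50 kb. Without the 8 genes over 200 kb it was 21.4 in those above 50 kb. Most hosts held 1 member (255 genes) or 2 to 4 (158 genes), and 37 genes held 5 or more.

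The gene with the most members was sbb, with 10 in 46.8 kb of eligible sequence, all in its first intron, over 27586 bp of 2R from 18326674 to 18354260. Their signals in order along the arm were 191, 382, 642, 331, 637, 239, 128, 78.1, 18.3 and 110, so that the strongest stood inside the run and the weaker ones toward its far end. The list of replicate 1 held 9 distal intronic peaks of sbb and that of replicate 2 held 8. The kibra gene, an upstream regulator of the Hippo growth pathway, followed with 8 members in only 19.8 kb, from 88.0 to 216, of which the libraries' lists held 8 and 4. Tet, of the TET dioxygenase family, had 8, from 5.49 to 197, with 5 in the list of replicate 1 and 3 in that of replicate 2.

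The next hosts held 6 to 8 members each. The Trithorax group gene tna had 8 members, but each library's list held 3 and 2 of the 8 had signals of 5.62 and 10.05. The zinc finger gene shn, a corepressor of Dpp signalling, had 7 members from 77.4 to 423, and ftz-f1, a nuclear receptor, had 7 from 14.3 to 265, with 7 and 8 in the lists of replicate 1 and replicate 2. The RNA-binding protein gene cpo had 7, of which 3 had signals of 22.5 or less. Another 11 genes had 6 members each, of which the 3 with the highest summed signal were msn (105 to 504), CG32264 (97.5 to 670) and Snoo, a SMAD-interacting protein gene (73.2 to 322). Of the members of shn, the strongest, at 423, lay in the second intron, beside one of 165 at a distance of about 1 kb.

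Some of these runs held pairs of summits only about 200 bp apart, less than a peak's width. A stronger summit of the list lay within 500 bp of 70 members (8.28%), whose median signal was 13.4, against 133 for the other 775. Of the 66 members with a signal under 50, 64 were of this kind. With such summits left out, sbb had 9 members, kibra and Tet 7 each, tna 6, shn 7, ftz-f1 6, cpo 4, msn and CG32264 6 each and Snoo 5. Runs of members within 10000 bp of the next included 471 members (55.7%), 37 runs had 4 or more, and 374 members stood alone. The closest 2 summits of the class were 199 bp apart.

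Genes of signalling pathways and of the ecdysone response were dense in members. Of 61 listed receptor signalling and morphogen pathway genes with eligible sequence, 29 were hosts (47.5%, against 12.7% of all eligible genes). They held 72 members at 73.1 per Mb and a median signal of 131, against 25.3 per Mb and 127 over all eligible sequence. The highest members of the list were those of aos, sbb, fz and mam given above, and without sbb the density was 66.1 per Mb. In the list of replicate 1 it was 76.2 per Mb, against 23.2 per Mb for the class, and in that of replicate 2 it was 54.8 per Mb, against 15.5 per Mb. Among 15 ecdysone-cascade and nuclear receptor genes 9 were hosts, with 25 members at 67.9 per Mb. Besides Hr3 and ftz-f1 these included E23, an ABC transporter of the ecdysone response, with 4 members up to 320, and Eip74EF, an Ets factor, with 3 up to 258. Polycomb and Trithorax group genes, which keep developmental genes off or on, had 7 hosts of 30 (23.3%) and 19 members at 68.6 per Mb. Their median eligible length was 1.85 kb. Of their members tna held 8, and without it the density was 43.2 per Mb. In each library's own list it was 36.1 per Mb. The highest of the list were Psc, a subunit of Polycomb repressive complex 1 (443), tna (269), trx (226) and skd, a Mediator subunit (206).

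Lists of developmental transcription factors ranged from 33.7 to 61.9 members per Mb, against 25.3 per Mb over all eligible sequence, and their share of host genes from 26.3 to 46.7%, against 12.7% of all eligible genes. Their median eligible length was 6.46 to 15.9 kb, against 1.61 kb over all eligible genes. Of all genes with 5 to 10 kb 19.7% were hosts, at 37.4 members per Mb, and of those with 10 to 20 kb 29.8%, at 35.2 per Mb. The neural and Hox densities lay below both of these values, and the segmentation and mesoderm densities above both. Segmentation and patterning factors had 7 hosts of 15 and 16 members at 53.9 per Mb, led by hth, a Hox cofactor, with 6 members up to 342, then nkd, an inhibitor of Wingless signalling (251), inv, the engrailed paralogue (214), and bowl (212). Mesoderm and muscle factors had 5 hosts of 19 and 13 members at 61.9 per Mb, led by ush, a GATA cofactor, with 5 up to 337, Mef2 with 4 up to 230, nau, the fly MyoD (164), and twi (106). Neural factors had 17 hosts of 44 at 33.7 per Mb, led by the Ets repressor aop (394), shep, an RNA-binding protein counted there too (341), grh (311) and pnt (287). Of 8 Hox genes 3 were hosts, Antp with 4 members up to 254, Ubx with 3 up to 180 and Abd-B with 1 of 135, at 33.7 per Mb together. In the list of replicate 1 the segmentation, mesoderm, neural and Hox lists had 50.5, 52.4, 27.2 and 29.5 per Mb, against 23.2 per Mb for the class. In that of replicate 2 they had 37.04, 52.4, 21.5 and 29.5 per Mb in the same order, against 15.5 per Mb. Of their candidates 14.5% passed in the segmentation list and 15.3% in the mesoderm list, whereas the neural list, at 11.1%, and the Hox list, at 10.5%, stood at the 10.8% of the class.

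Genes of neuronal wiring and excitability had few members per Mb of their introns. Axon guidance and neuronal cell-surface genes had a median of 25.9 kb of eligible sequence, against 1.61 kb over all eligible genes, and 13 of 73 were hosts (17.8%, against 12.7% of all eligible genes). Their 24 members stood at 10.1 per Mb, against 25.3 per Mb over all eligible sequence and 14.4 per Mb in all genes with more than 50 kb of it, and 4.17% of their candidates passed, against 10.8% for the class. The hosts with the highest members were Fas3, an adhesion molecule (388), side (353), Sema1a, a semaphorin with 6 members (341), and sli, a midline repellent (296). Ion channel and neurotransmitter receptor genes had 6 hosts of 56 at 10.3 per Mb, among them the channel gene Ih with a member of 322, and nAChRalpha5, Ca-beta and Shab with at most 118. RNA-binding and splicing regulators stood at 12.5 per Mb, with 8 hosts of 38, led by shep, how (304), Rbfox1 (276) and heph (236). Both neuronal lists lay below the density of all eligible sequence in the list of each library as well, with 10.6 and 9.14 per Mb in replicate 1, against 23.2 per Mb for the class, and 4.23 and 4.57 per Mb in replicate 2, against 15.5 per Mb for the class.

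Sarcomere and muscle structure genes had 6 hosts of 26 with 1 member each, at 17.7 per Mb, led by Dys, how, Zasp52 (179) and the formin Fhos (156). None of the 11 insulator protein genes with eligible sequence hosted a member, but together these offered 0.0504 Mb. No cytoplasmic ribosomal protein gene had eligible sequence. Of the 672 symbols listed, 19 stand in more than 1 list.

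**Figure D4:**
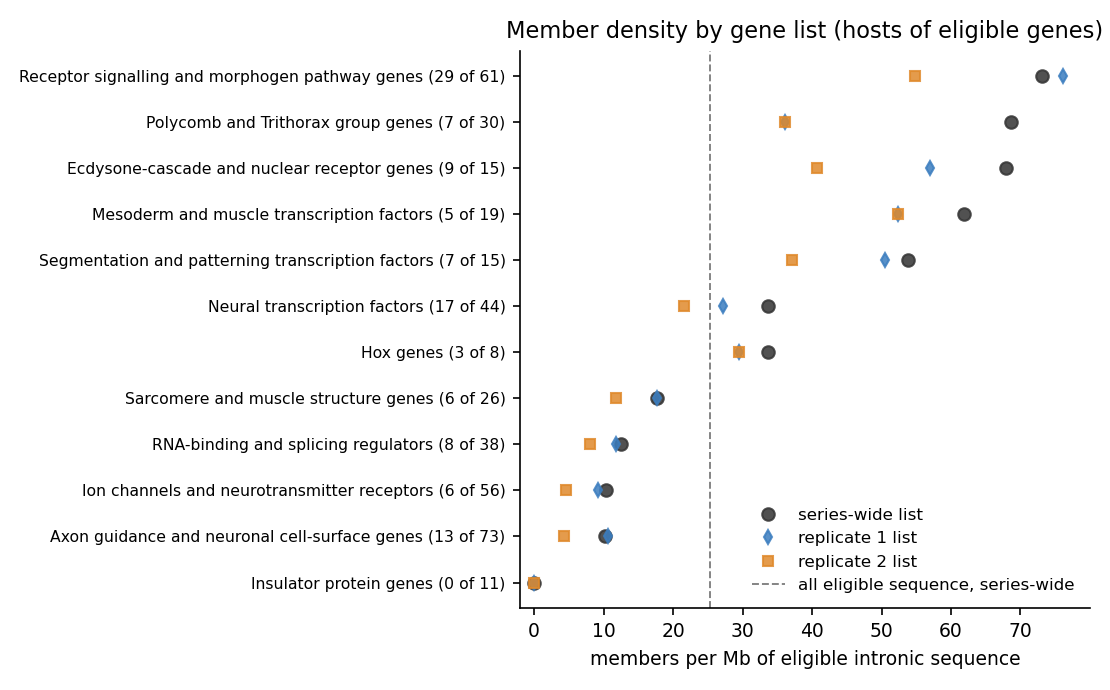
Members per Mb of eligible intronic sequence for each gene list in the series-wide list and in each library's list, with the number of host genes of eligible genes in brackets and the dashed line at the 25.3 per Mb of all eligible sequence. Receptor signalling genes (73.1 per Mb) stand at the top, and sarcomere (17.7), RNA-binding (12.5), ion channel (10.3) and axon guidance genes (10.1 per Mb) and insulator genes (0) stand left of the dashed line in all 3 lists. The whole class stood at 15.5 per Mb in the list of replicate 2, so that the neural factors, at 21.5 per Mb there, are left of the line yet above that value.

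The summits of members lay in local troughs of GC content. Over 101 bp the members averaged 33.4% ± 8.70 (SD, n = 845), against 44.0% ± 9.15 at failing candidates of the class (SD, n = 6977) and 40.02% over all eligible sequence. At 400 bp to either side the averages were 43.2% and 41.5%, and 81.5% of members were lower in GC at the summit than at these flanks, against 39.3% of failing candidates. In 21-bp windows the members' mean was 31.6% at the summit and 41.2% and 41.9% at 100 bp to the left and right of it. The trough was not particular to these introns: summits averaged 33.6% in introns near start sites, 33.9% in distal intergenic peaks and 32.9% in distal introns of the X. It was deeper at strong members, with 30.8% among the 100 strongest and 37.0% among ranks 601 to 845. Those ranks hold the 64 summits with a signal under 50 that lay within 500 bp of a stronger one, which averaged 43.2%.

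**Figure D5:**
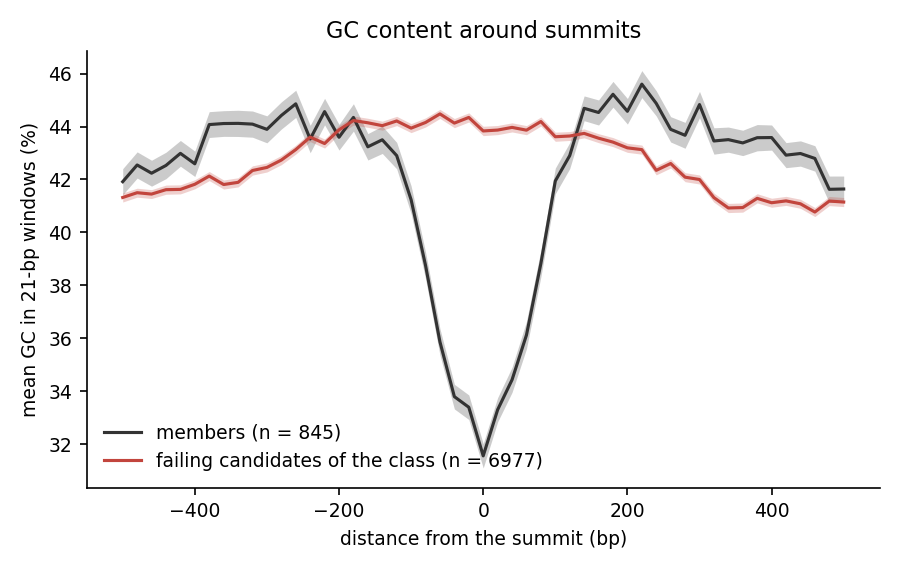
Mean GC content in 21-bp windows (vertical axis, starting at 30%) by distance from the summit in bp (horizontal axis), for the 845 members and the 6977 failing candidates of the class, with bands of 1 standard error over regions. The members' line drops to 31.6% at the summit, where the failing candidates stand at 43.8%.

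Letters made of A and T were correspondingly common. At least 1 of the 3 hexamers marked in the sequences above, which overlap one another and were picked after the sequences were seen, lay within 50 bp of 372 member summits, or 44.0% (40.7 to 47.4%), against 18.5% of failing candidates. Weighting the failing candidates to the members' GC content brought their share to 40.2%, so that base composition moved with most of the difference. Of 20 octamers chosen on peaks outside the class, 178 members (21.1%) held at least 1, against 6.44% of failing candidates and 23.7% of the other peaks. At matched GC the share of failing candidates was 15.5%, and 8 of the 20 octamers were rarer in members than in such candidates, among them TAATATTA (1.18% against 1.39%). TTTTAAAA was found in 34 members (4.02%, against 0.788% of failing candidates and 2.18% at matched GC). Summits high in GC were rare: 47 members had 50% or more, 5.56% against 28.1% of failing candidates, and CG8745, at 64.4% between flanks of 27.7%, was the only such member among the 25 strongest.

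Known sites lay above, near or below the share in failing candidates of matched GC, depending on the site. In all 19 sites were searched on both strands within 100 bp of the summit, and not all are given here. A match is a description of letters, not of binding. The CTCF core (AG, then A or G, then G or T, then GGCGC) lay at 14 members, 1.66% (0.989 to 2.76%), against 0.745% of failing candidates, 0.363% of these at matched GC, and 2.26% of all other peaks. The AP-1 site, TGA followed by C or G and then TCA, lay at 24 members, 2.84% (1.92 to 4.19%). Failing candidates had it at 1.69%, and at 1.69% also at matched GC, and all other peaks at 1.65%. The DNA replication-related element TATCGATA, a promoter element, lay at 4 members (0.473%), against 3.91% of the other peaks. Failing candidates had it at 0.258%, and at 0.372% at matched GC. The BEAF-32 box CGATA, which that element contains, lay at 20.2% of members and 29.0% of the other peaks. Failing candidates had the box at 17.3%, and at 18.2% at matched GC. GATA sites, GATAA with A or T before it and A or G after it, lay at 18.7% of members, against 11.6% of failing candidates and 17.1% at matched GC, and the Hunchback run TTTTTTA at 22.2%, against 12.4% and 23.6%. Runs of AAAAAAA lay at 26.6% of members (23.8 to 29.7%), against 19.7% of failing candidates and 30.6% of these at matched GC. The Antp-class site, TTAAT followed by G or T and then A or G, lay at 24.1% (21.4 to 27.1%), against 21.1% and 28.4%. The Pho site, GCCATN followed by A or T and then C or T, lay at 7.34% (5.77 to 9.30%), against 13.9% and 10.2%, so that these 3 were below the matched share.

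Members with ACAGGGT differed in the balance of the libraries. These letters, which the chosen octamers ACAGGGTG and ACCCTGTA share on opposite strands, lay within 50 bp of 19 member summits, or 2.25% (1.44 to 3.49%), against 0.631% of failing candidates, 0.465% at matched GC, and 2.05% of the other peaks. Their signal was higher in replicate 2 than in replicate 1 at 14 of the 19 (73.7%), with a median log2 ratio of replicate 2 over replicate 1 of 0.47, against 141 of 793 members without the letters (17.8%) and a median of -0.46. The peak in Synd, a syndapin, had 136 in replicate 2 and 69.2 in replicate 1, that in CG34355 127 and 81.6, and that in sima, a hypoxia-inducible factor, 123 and 82.5 in the same order. The other 5, among them the strongest of the 19, were higher in replicate 1, as in CG6040, with 57.4 in replicate 2 and 79.2 in replicate 1. Among peaks outside the class the letters went with the same balance, at 66 of 88 (75.0%), against 669 of 4057 without them (16.5%). Members without the letters at 40 to 50% GC, a range that includes the 43.0% mean of the 19, were higher in replicate 2 at 31 of 104 (29.8%). Members of 50% GC or more, with or without the letters, were so at 18 of 42 (42.9%). Among the 19 the log2 ratio rose with summit GC (Spearman rho 0.677), and less so among peaks outside the class with the letters (0.186). The 19 include summits of a single gene, tna, with signals of 125, 72.1 and 5.62, so not all lie in separate genes. The letters were looked at after the octamers were seen, and what else differs between the 2 libraries was not tested.

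The tagged gene itself offers no place for a member. CG10366 (2L, 19584235 to 19586440, plus strand) has 0 bp of eligible sequence, and 3 series-wide peaks and 5 ranked candidates lay within 2000 bp of it. Within 30000 bp of it were 9 series-wide peaks, of which 2 were members, both in Lar, a receptor tyrosine phosphatase gene, at 6635 and 6852 bp from CG10366. Their signals were 41.4 and 15.4, neither was in a library's own list, and replicate 2 had no ranked candidate there. Whether the strain carries additional genomic DNA around CG10366 is not given in the sources used here, and its part in peaks near the gene was not tested.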

How the data were processed

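Both libraries and the series as a whole are represented by peak lists on assembly dm6, per the file headers and labels; which aligner and which peak caller made them is not given in the sources used here, and neither reads nor coverage nor input controls were used. Signal is the deposited value per peak, and the ranked lists hold the deposited −log10 of the IDR; the thresholded series-wide list starts at 2.00037. Summits were placed on Ensembl release 115 genes (dm6 arms, transposable elements left out), and sequence came from RefSeq's Release 6 genome. Overlap meant at least 1 bp. GC was taken 50 bp, known motifs 100 bp to either side of a summit. The 20 octamers had the highest ratio of window shares between peaks and failing candidates outside the class (at least 40 windows, 0.5 added to counts). Shares have 95% Wilson intervals, which cover counting error only. With 1 group of 2 libraries no test was run. Named genes are hosts of the 25 strongest members, the 10 hosts with most members (ties by summed signal), up to 4 genes of each of 14 lists by highest member signal, and CG10366; 1 list is not reported here, some windows read are not printed, and any other named gene was chosen after its values were seen. Members and lists were chosen with earlier results of these data known. Code was tested on simulated data. Python 3.11.15, numpy 2.4.6, pandas 2.3.3 and scipy 1.17.1 were used.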

Additional observations from a re-analysis of the deposited data

How the results depend on the processing

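With 1 library's own list in place of both, the number of members was 518 to 776 (845 as reported), their share of the list 15.3 to 15.9%, the share of the class's candidates that passed 4.76 to 6.38% (10.8% as reported), GC at summits 32.3 to 33.1%, and the GC gap to failing candidates 10.8 to 11.6 points. At 5000 bp from a start site there were 475 members in 271 host genes, 9.22% of the list, with 9.70% of candidates passing, 46.1% found in both libraries, a signal ratio to other peaks of 0.831 and a GC gap of 11.3 points; at 1000 bp the share was 22.3%, the pass share 11.8% and the signal ratio 0.884. An IDR of 0.001 or less gave a signal ratio of 0.837, GC of 32.4%, a gap of 11.6 points, 7.46% passing and 71.8% in both libraries. The conservative list gave a signal ratio of 0.857 and 5.35% passing. GC over 100 bp to either side was 35.8%, 8.26 points below failing candidates. The strongest member per host gene alone, which picks strong peaks by construction, gave a signal ratio of 1.05 (0.870 as reported) and GC of 32.2%. Requiring 50% overlap left 46.5% in both libraries. Chosen after seeing the data, leaving out summits within 500 bp of a stronger one gave a signal ratio of 0.854, GC of 32.5% and a gap of 11.5 points, and leaving out genes over 200 kb of eligible sequence gave a density ratio to the X of 0.722. Of the 75 alternative values of these results, 43 moved by less than the spread between libraries or the counting interval, and members stayed below failing candidates in GC and below the X in density in all. For the number of members that spread was wide. The 43 thus include 585 members at an IDR of 0.001 or less and 1148 at 1000 bp, against 845 as reported. The cause of each shift was not tested. No paired analysis was possible because the series has 1 group. Of 39 alternative densities of the gene lists, 21 moved by less than the spread between libraries. Depth is unknown, and a member missing from a library's list may lie just under its threshold.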

Other observations

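Members in the bithorax complex, the Hox gene cluster that patterns the abdomen, were looked at after the lists of CTCF-core members were seen. Ubx, the non-coding genes lncRNA:bxd and lncRNA:iab8 and Abd-B together held 12 members over 246 kb of 3R, with signals from 17.7 to 214. Of the 14 members with a CTCF core, 3 lay there, as did 12 of all 845 members. Because the complex was looked at after the CTCF-core members were seen, this count cannot show whether they are concentrated there. The CTCF-core members in lncRNA:iab8 had signals of 214 and 140, and that in lncRNA:bxd had 101. The one of 214 was in both libraries' own lists, the one of 140 only in that of replicate 1, and the one of 101 in neither, with no ranked candidate in replicate 1. Of the 12 members 6 were in both lists. The weakest of the 12, at 17.7 in lncRNA:bxd, lay within 500 bp of a stronger one. The complex's Hox gene abd-A, with 8 candidates in 15.7 kb of eligible sequence, held 0 members. CTCF is known from boundaries between the regulatory domains of this complex. Of the Ubx members, the one with ACAGGGT had 72.1 in replicate 2 and 52.4 in replicate 1.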
